A study of Homo sapiens with 6 samples.

Results

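The nuclear lamina and the LINC complex were described here through 10 genes, chosen by name: LMNA, LMNB1 and LMNB2 (lamins), LBR and EMD (inner nuclear membrane proteins), SUN1 and SUN2 (the inner membrane side of the LINC complex), and SYNE1, SYNE2 and SYNE3 (nesprins, its outer membrane side). They were 10 of 21447 genes with counts in the files, and together held 204 annotated transcripts, of which 30 belonged to SYNE2 and 47 to SYNE1. Bulk RNA-seq was available for 3 untreated libraries and 3 IR libraries of U-2 OS, a human osteosarcoma cell line, which carried no labelled transgene or deletion in either group. The IR libraries were made 24 h after 4 Gy of ionizing radiation. The comparison asks which transcripts differed between irradiated and untreated cells of this single line. The study's methods call the 3 samples of a group independent, but neither they nor the labels say whether these came from separate cultures, so P values measure the spread between these libraries, which may be technical.

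Lamins are intermediate filament proteins that form a meshwork under the inner nuclear membrane. A-type lamins (lamin A and lamin C, both from LMNA) and B-type lamins (from LMNB1 and LMNB2) bind chromatin and inner membrane proteins such as emerin and the lamin B receptor. In the LINC complex, SUN proteins span the inner membrane and grip the KASH peptide at the carboxy-terminal end of nesprins in the outer membrane. Giant nesprin-1 and nesprin-2 carry an actin-binding region at the amino-terminal end and a long rod of spectrin repeats between the ends, and shorter products of the same genes lack one end or both. Loss of lamin B1 is a widely used marker of senescent cells.

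The coding ends below, read from GENCODE transcripts, show the shared end of the B-type lamins and what separates giant from short nesprins. Of the lamins, capitals mark the last 4 codons before the stop codon, the CaaX box, which is the site of farnesylation.
lamin B1: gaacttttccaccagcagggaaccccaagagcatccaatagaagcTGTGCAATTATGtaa
lamin B2: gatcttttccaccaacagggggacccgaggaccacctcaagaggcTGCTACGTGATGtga
Both boxes begin with a cysteine codon and end with ATG. For the nesprins, capitals mark the start codon and the stop codon of the canonical giant transcripts, SYNE1-206 and SYNE2-215.
SYNE1 start: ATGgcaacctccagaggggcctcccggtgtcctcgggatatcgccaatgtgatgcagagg
SYNE2 start: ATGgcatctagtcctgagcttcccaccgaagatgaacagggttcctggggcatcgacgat
SYNE1 end: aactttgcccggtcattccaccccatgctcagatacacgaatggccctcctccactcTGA
SYNE2 end: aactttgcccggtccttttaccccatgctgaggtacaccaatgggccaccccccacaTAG
The end sequences, which encode the KASH peptide that SUN proteins bind, were identical at 45 of 60 bases between both genes. These stretches of 60 bases were used further on to sort nesprin transcripts by the ends they hold.

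Depth was 18573309 to 22953834 estimated counts in 5 libraries and 45308792 in IR replicate 3, which differed most from the other libraries of its group (chi-square per gene of 29.1 and 32.2, against 3.45 to 9.15 for the other pairs within a group, a measure that grows with depth). The deposited data of this library bear a mark that may mean a repeat, and no source used here says whether it was sequenced again. The 8 mesenchymal and bone markers summed to 5977 to 7040 CPM over all libraries. The highest were COL1A1, SPARC and VIM (means of 2931, 1661 and 1500 CPM in untreated libraries, n = 3). COL1A2, ALPL and BGLAP were low (1.48 ± 0.60, 1.87 ± 0.24 and 0.0851 ± 0.08 CPM in untreated libraries, SD, n = 3). The 3 epithelial markers summed to 11.4 to 14.3 CPM, the 3 blood markers to 0.896 to 1.87 CPM, with CD3E at 0, and the 2 endothelial markers to 0.285 to 0.684 CPM. CDKN1A and MDM2, targets of p53, rose after IR by 1.53 and 0.60 on the log2 scale (adjusted P = 2.82e-05 and 0.000291).

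After IR, the transcripts of SYNE2, LMNB1 and LBR fell and those of LMNA and EMD rose slightly, so that 5 of the 10 genes passed the test (edgeR, adjusted P under 0.05). In fragment counts SYNE2 changed most, to 39.2% of its untreated level, LMNB1 fell to 68.6% and LBR to 77.4%, whereas LMNA stood at 119% and EMD at 114%. Among all 14323 genes tested, 30.1% passed, with 15.5% higher and 14.5% lower, against 2 higher and 3 lower of these 10. In 8 of the 10 genes the CPM ranges of the groups did not overlap, which held for 47% of all genes tested. The median log2 fold change was -0.16 over the 10 genes and 0.01 over all genes. In bulk RNA, fewer cells with a transcript and less of it per cell cannot be told apart. The higher calls depended on the scaling: after a trend with GC content was removed, none of the 10 genes was called higher and 5 were called lower (LMNB1, LMNB2, SYNE2, SUN1 and SUN2). In that fit 11.7% of all genes tested were called higher and 12.6% lower. SYNE2 and LMNB1 were called lower in all 15 alternatives, and with an offset for effective length LMNB1 had the larger change (-0.74 against -0.62 on the log2 scale).

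Among the lamins, LMNB1 (chr5:126776623-126837020, GRCh38) encodes lamin B1. Its level in replicates 1 to 3 was 226, 222 and 255 CPM without IR and 173, 160 and 150 CPM after IR, where CPM are counts scaled to a common library total. Every IR library was below every untreated library, with means of 235 ± 17.9 and 161 ± 11.2 CPM (SD, n = 3). The log2 fold change was -0.55 (SE 0.08, adjusted P = 0.00131), and it ranged from -0.74 to -0.48 over the alternatives, with adjusted P of at most 0.0475. Thus LMNB1 transcripts were lower after IR by more than the spread between libraries under each setting tried.

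LMNA (chr1:156082573-156140081) was at 359, 357 and 378 CPM in untreated libraries and at 398, 411 and 491 CPM after IR. The groups did not overlap, and IR replicate 3 was the highest. Its log2 fold change of 0.25 (SE 0.08, adjusted P = 0.0464) dropped to 0.14 without IR replicate 3 (adjusted P = 0.0955) and to -0.03 with the GC trend removed (adjusted P = 0.766). LMNA was called in 4 of 15 alternatives, and its transcripts had one of the highest GC contents of the 10 genes (61.2%).

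Counts of LMNA were spread over 38 transcripts. The 3 transcripts that encode full-length lamin A summed to 153, 140 and 131 CPM in untreated and 156, 145 and 247 CPM in IR libraries. The 2 transcripts that encode lamin C summed to 14.7, 30.4 and 61.5 CPM in untreated and 124, 49.8 and 7.92 CPM in IR libraries. In untreated libraries these sums averaged 141 and 35.5 CPM, against 365 CPM for the gene, so much of its counts lay on other transcripts. Both products overlapped between groups (exact permutation test, 2-sided, P = 0.2 and 0.7), and the estimates of lamin C varied within a group by more than they differed between groups. Transcript usage of LMNA, the make-up of its counts by transcript, did not pass the test (adjusted P = 1.00).

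LMNB2 (chr19:2427638-2456959), which encodes lamin B2, was at 474, 474 and 497 CPM in untreated and 447, 419 and 459 CPM in IR libraries. The ranges did not overlap, but the log2 fold change of -0.13 (95% confidence interval -0.27 to 0.01, adjusted P = 0.158) did not pass. With the GC trend removed it was -0.38 (adjusted P = 0.00272), for transcripts of 60.7% GC.

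At the inner nuclear membrane, LBR (chr1:225401502-225428925) encodes the lamin B receptor, a chromatin tether that is also a sterol reductase. It was at 168, 179 and 179 CPM in untreated libraries and at 139, 125 and 143 CPM after IR. All IR libraries were lower, with a log2 fold change of -0.37 (SE 0.07, adjusted P = 0.00445). LBR had the lowest GC content of the 10 genes (38.4%), and with the GC trend removed its log2 fold change was -0.17 (adjusted P = 0.117).

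EMD (chrX:154379273-154381574) encodes emerin, a LEM-domain protein that binds lamins. It was at 59.2, 59.2 and 55.6 CPM in untreated and 63.9, 67.3 and 67.6 CPM in IR libraries. All IR libraries were higher, by 0.19 on the log2 scale (SE 0.07, adjusted P = 0.0473). This call was kept in 1 of 15 alternatives, and the log2 fold change was 0.01 with the GC trend removed (adjusted P = 0.944), for transcripts of 58.4% GC.

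SUN1 (chr7:816615-896435) was at 229, 229 and 242 CPM in untreated and 209, 210 and 205 CPM in IR libraries. The groups did not overlap, yet the log2 fold change of -0.17 (95% confidence interval -0.30 to -0.03) had an adjusted P of 0.0571. It passed in 2 of 15 alternatives, with the GC trend removed (adjusted P = 0.0399) and in the DESeq2 Wald test (adjusted P = 0.0364). In the other 13 it did not pass, with adjusted P of up to 0.226. SUN2 (chr22:38733290-38794143) was at 101, 104 and 95.3 CPM in untreated and 93.7, 98.7 and 117 CPM in IR libraries, so that the groups overlapped and IR replicate 3 was the highest. Its log2 fold change of 0.04 (adjusted P = 0.736) was -0.07 without IR replicate 3 (adjusted P = 0.460) and -0.24 with the GC trend removed (adjusted P = 0.00908), and its GC content was 61.4%. Exons of SUN1 overlap those of GET4 on the same strand over 1842 bases, and exons of SUN2 overlap those of GTPBP1 on the opposite strand over 1135 bases, so that reads from these stretches could be assigned to either gene.

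**Figure D1:**
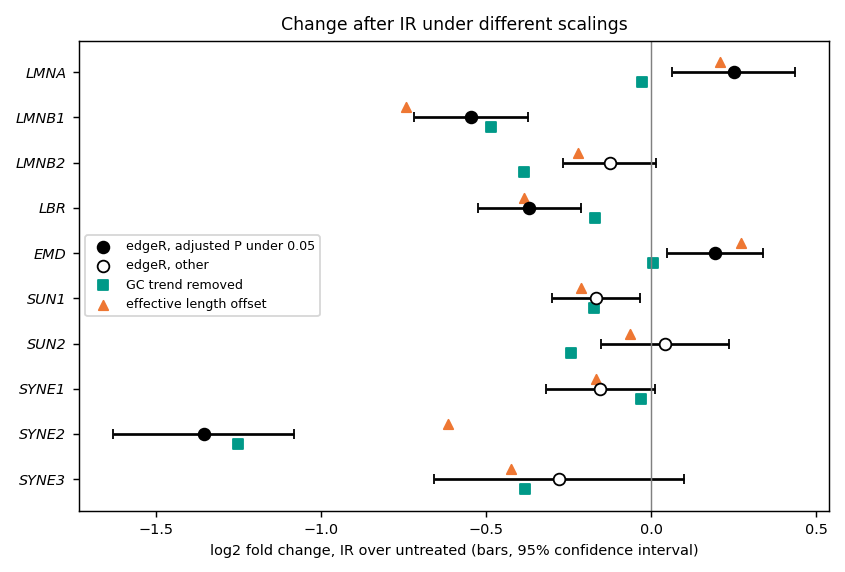
Log2 fold change (x axis, IR over untreated) of the 10 genes, with circles and 95% confidence intervals from edgeR, filled where adjusted P is under 0.05, squares with the GC trend removed and triangles with an offset for effective length. LMNA and EMD lie right of 0 by circle and at about 0 by square, whereas SYNE2 and LMNB1 lie left of 0 by every symbol.

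Of the nesprins, SYNE2 (chr14:63761899-64226433) encodes nesprin-2. It was at 132, 150 and 124 CPM in untreated libraries and at 64.2, 49.5 and 45.5 CPM after IR. Every IR library was below every untreated library, with means of 135 ± 13.7 and 53.1 ± 9.84 CPM (SD, n = 3). The log2 fold change was -1.36 (SE 0.12, adjusted P = 0.000238), which ranked SYNE2 as number 5 by P among all genes that were lower. With effective length in the model, that is, with counts read as molecules and not as fragments, it was -0.62 (adjusted P = 0.0081).

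The mean length of the SYNE2 transcripts, weighted by TPM, was 13129, 14198 and 11921 bases in untreated libraries and 9831, 6838 and 6299 bases after IR. Its mean effective length, the length by which counts are divided for TPM, went from 9983, 10753 and 9153 to 7636, 5364 and 5216 bases. Both were lower in each IR library. The effective length of the giant transcript itself hardly varied (16430 to 17038 bases for SYNE2-215 over the 6 libraries), so the difference lay in which transcripts the counts were assigned to.

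SYNE2-215, with 116 exons and 21822 bases, holds both coding ends. It was at 103, 126 and 93.9 CPM in untreated libraries and at 37.7, 22.3 and 14.1 CPM after IR. The groups did not overlap, and the log2 fold change was -2.10 (SE 0.37, unadjusted P = 0.00152). After adjustment over 56752 transcripts P was 0.162. Of those transcripts 0% passed in edgeR, although 6090 had an unadjusted P under 0.05, and DESeq2 called 3002, among them SYNE2-215 (adjusted P = 2.98e-06). On simulated data with the spread of these libraries the edgeR transcript fit had next to no power, so its adjusted P values say little about whether a transcript differed. SYNE2-202, a second giant transcript of 21777 bases, was at 10.8, 11.5 and 5.01e-07 CPM in untreated libraries and at 0 after IR. It has 115 exons, and reads shared by both giant transcripts cannot be told apart.

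Transcripts with the KASH end but not the start had other profiles. SYNE2-219, annotated as a target of nonsense-mediated decay, was at 0 in all untreated libraries and at 4.76, 3.22 and 3.53 CPM after IR (edgeR, unadjusted P = 0.000233, adjusted P = 0.142). This was 25.9-fold a floor of 3 counts per library. The fold is no lower bound, because a 0 can come from how reads shared between transcripts were assigned. SYNE2-204, of 11095 bases and annotated with a retained intron, was at 4.09, 0 and 20.2 CPM in untreated and 13.1, 14.2 and 11.1 CPM in IR libraries. SYNE2-207, also annotated as a target of nonsense-mediated decay, was at 1.18, 0.444 and 0 CPM in untreated and 0, 1.85 and 6.67 CPM in IR libraries. Both overlapped between groups. SYNE2-224, an internal transcript with neither end, was at 7.60, 7.05 and 6.67 CPM and at 6.73, 4.57 and 5.41 CPM (log2 fold change -0.32, adjusted P = 0.710).

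Summed by coding ends, a split chosen after the values per transcript were seen and therefore given with no test, the 4 SYNE2 transcripts with both ends held 114, 138 and 93.9 CPM in untreated and 37.7, 22.3 and 14.3 CPM in IR libraries. The 7 transcripts with the KASH end alone held 7.45, 2.27 and 20.2 CPM in untreated and 19.1, 20.0 and 24.7 CPM in IR libraries. The giant transcripts were thus lower in every IR library, while in CPM the transcripts with the KASH end alone overlapped between groups. This class is set by sequence and not by protein product. Its largest member after IR, SYNE2-204 (12.8 ± 1.55 CPM), has no annotated coding sequence. As a share of the counts of SYNE2, giant transcripts went from 84.8% ± 8.16 to 45.1% ± 13.7, and transcripts with the KASH end alone from 7.84% ± 7.65 to 41.5% ± 12.3 (SD, n = 3). Per effective length, giant transcripts stood at 8.86 ± 1.75 TPM in untreated and 1.84 ± 0.89 TPM in IR libraries, and transcripts with the KASH end alone at 1.69 ± 0.99 and 3.91 ± 1.50 TPM, and on this scale both classes were without overlap between groups. Usage of SYNE2 transcripts as a whole did not pass the test of edgeR (diffSpliceDGE, adjusted P = 0.0561). It passed in 1 of 9 alternatives, without untreated replicate 3 (adjusted P = 0.00859). The adjusted P was highest with the replicate block (0.497).

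SYNE1 (chr6:152121687-152637801), which encodes nesprin-1, differed little as a whole gene. It was at 423, 460 and 421 CPM in untreated and 426, 379 and 368 CPM in IR libraries, with overlapping groups and a log2 fold change of -0.15 (95% confidence interval -0.32 to 0.01, adjusted P = 0.142). Its transcripts differed by the coding ends they hold, again given with no test. The 2 giant transcripts of SYNE1 held 193, 232 and 173 CPM in untreated and 126, 80.4 and 63.3 CPM in IR libraries. The 13 transcripts with the KASH end alone held 51.5, 49.5 and 61.8 CPM in untreated and 102, 104 and 110 CPM in IR libraries. Neither class overlapped between groups. The class with the KASH end alone includes SYNE1-207, of 10742 bases, annotated with a retained intron and no coding sequence. It held 28.7 ± 6.85 CPM in untreated and 46.0 ± 1.71 CPM in IR libraries (SD, n = 3). The 24 transcripts with neither end were close in both groups, at 171 ± 5.27 and 172 ± 18.5 CPM (SD, n = 3), but at 187 ± 9.50 and 150 ± 27.4 TPM. The 8 transcripts with the start alone held 10.9 ± 0.74 CPM in untreated and 24.2 ± 17.3 CPM in IR libraries (SD, n = 3), higher in every IR library and highest in IR replicate 3.

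Usage of SYNE1 transcripts passed the test (adjusted P = 0.0183), as did that of SUN1 (adjusted P = 0.00513), 2 of the 9 genes that could be tested, against 2.73% of all 10666 genes. On simulated data with the spread of these libraries this test missed nearly all planted changes and most of its calls were of unchanged genes, so neither a call nor its absence is firm here. Within SYNE1, the giant SYNE1-206 was at 174, 218 and 155 CPM in untreated and 115, 80.4 and 57.7 CPM in IR libraries (unadjusted P = 0.0386 against the rest of the gene). SYNE1-209, of 10634 bases, was at 0 in untreated and at 2.58, 2.42 and 1.92 CPM in IR libraries, 15.5-fold a floor of 3 counts per library. It had the lowest unadjusted P of the gene in the usage test (1.54e-05). In SUN1 the lowest was that of SUN1-205, which was at 0 in untreated and at 1.63, 1.43 and 0.697 CPM in IR libraries. This was 8.43-fold a floor of 3 counts per library. For SYNE1-209 and SUN1-205 too, the fold is no lower bound, because a 0 can come from how shared reads were assigned. These leading transcripts were rare, and both calls were lost where at least 10 counts in every library were required (adjusted P = 0.127 and 1.00). The call of SYNE1 was also lost without any one untreated library (adjusted P = 0.341 to 0.576), and that of SUN1 without each library in turn but IR replicate 3 (0.0518 to 0.173).

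Long transcripts in general give the setting for the nesprins. Both genes span over 300 kb (516115 and 464535 bp), and of 656 tested genes of such span 19.8% were lower and 5.18% higher. SYNE2 also belonged to the 95 tested genes with a mean transcript length over 10 kb, of which 43.2% were lower and 1.05% higher (median log2 fold change -0.32). Of 882 transcripts over 10 kb, 68.5% had a negative log2 fold change, against 50.2% of all transcripts tested. In SYNE2 the share of counts on transcripts over 10 kb was lower by 22.1 percentage points after IR and in SYNE1 by 17.2 points (coded as -22.1 and -17.2, IR minus untreated). Among 524 genes with 5% to 95% of their counts on such transcripts, these were the falls of rank 13 and 27, the median change was -0.17 points, and the share was lower in every IR library in 19.5% of genes and higher in every IR library in 17.7%. Fewer giant transcripts and a coverage that differs along the same transcript cannot be told apart from estimated counts, and the coverage along transcripts was not tested.

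SYNE3 (chr14:95407266-95516650) encodes nesprin-3, which links the nucleus to intermediate filaments through plectin. It was rare, at 5.55, 5.61 and 5.38 CPM in untreated and 3.59, 4.80 and 5.16 CPM in IR libraries. The groups did not overlap, but the log2 fold change of -0.28 (95% confidence interval -0.66 to 0.10, adjusted P = 0.239) did not pass.

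Levels of different genes were compared per effective length, as TPM. In untreated libraries the order was LMNA (339 ± 38.9), LMNB1 (251 ± 36.3), SYNE1 (211 ± 10.2), LMNB2 (137 ± 6.38), SUN1 (95.4 ± 5.33), LBR (77.9 ± 5.50), EMD (61.3 ± 3.05), SUN2 (29.4 ± 1.39), SYNE2 (17.3 ± 0.58) and SYNE3 (0.778 ± 0.12 TPM, SD, n = 3). No neighbours in this order overlapped. After IR, LMNB1 (145 ± 14.4 TPM) came after SYNE1 (181 ± 23.2 TPM), and EMD (71.6 ± 5.07 TPM) came before LBR (57.9 ± 9.63 TPM), with SUN1 and EMD overlapping. The high TPM of SYNE1 lay in short transcripts with neither coding end (187 of 211 TPM in untreated libraries), whereas its giant transcripts stood at 10.9 ± 1.70 TPM, close to those of SYNE2 (8.86 ± 1.75 TPM). After IR giant SYNE1 stood at 4.78 ± 1.73 TPM.

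Ratios within a library do not depend on the scaling between libraries, but they do depend on adjustments made per gene, such as removal of a GC trend. In all, 4 pairs of related genes were compared by log2 ratio of TPM. LMNA over LMNB1, the balance of A-type and B-type lamin transcripts, was 0.46, 0.46 and 0.39 in untreated and 1.04, 1.33 and 1.78 in IR libraries. LMNB2 over LMNB1 was -0.67, -0.77 and -1.15 in untreated and -0.48, -0.46 and -0.09 in IR libraries. SYNE1 over SYNE2 was 3.58, 3.62 and 3.63 in untreated and 4.31, 4.02 and 3.81 in IR libraries. These 3 ratios were higher in every IR library, by 0.95, 0.52 and 0.44 on average, each at P = 0.1 (exact permutation test, 2-sided, adjusted P = 0.133 over the 4 pairs), the smallest P that 3 against 3 libraries can give, so that this test could not pass. From counts without division by effective length, LMNA over LMNB1 was higher by 0.79, LMNB2 over LMNB1 by 0.42 and SYNE1 over SYNE2 by 1.21. SUN2 over SUN1 overlapped between groups and differed by 0.14 (exact permutation P = 0.3). No ratio was taken with the GC trend removed. In that fit the log2 fold changes were -0.38 for LMNB2 and -0.48 for LMNB1, so both fell by similar amounts. LMNA and SYNE1 were then at -0.03, SYNE2 at -1.25, SUN2 at -0.24 and SUN1 at -0.17.

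Further genes of the nuclear envelope were read from lists, beside shares over all genes of 14.5% called lower and 15.5% called higher. Of 14 inner nuclear membrane and LEM-domain genes, 3 fell and 1 rose (median log2 fold change -0.06), close to those shares. TMPO, which encodes the lamina-associated polypeptide LAP2, fell by 0.68 on the log2 scale, from 185 ± 11.3 to 116 ± 7.01 CPM (SD, n = 3, adjusted P = 0.000385), and was called lower in all 15 alternatives. LEMD3 and NEMP1, inner membrane proteins, also fell and LEMD2 rose, each by less than 0.5. The call of LEMD2 was lost in 7 of 15 alternatives, the removal of the GC trend among them. That of LEMD3 was lost in 3, the effective length offset among them, and that of NEMP1 in 0. Of the 5 genes for lamin processing 2 fell, FNTB (a subunit of the farnesyltransferase that acts on the CaaX boxes shown above) and ICMT (which methylates the farnesylated cysteine), and the median was -0.07. Neither passed with the effective length offset.

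Of 31 nuclear pore genes 14 fell and none rose (median log2 fold change -0.19, against 0.01 over all genes and 14.5% of all genes called lower). RANBP2, a filament protein of the cytoplasmic face, fell by 0.52 (342 ± 15.5 to 239 ± 33.2 CPM, adjusted P = 0.00363). The number of pore genes called lower was 12 with the GC trend removed, where 1 was called higher, and 4 with the effective length offset, where 6.11% of all genes were called lower. Of 9 tested LINC partners 2 rose and 1 fell (median 0.18), near the shares over all genes of 15.5% and 14.5%, with SPAG4, a SUN-domain protein, at 1.35 ± 0.70 and 2.66 ± 0.37 CPM (log2 fold change 1.01, adjusted P = 0.0391, called in 5 of 15 alternatives). With the effective length offset no gene of this list passed.

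Proliferation genes moved in the same comparison. Of 10 such genes 6 fell and none rose (median log2 fold change -0.26, against 14.5% of all genes called lower and 15.5% higher), and their summed level was 2924 to 3052 CPM in untreated and 2153 to 2252 CPM in IR libraries. MKI67, which encodes the Ki-67 protein, fell by 1.10 on the log2 scale, TOP2A by 0.54 and BUB1 by 0.50. CCNB1, CDK1, MCM2 and PCNA did not pass. MKI67 was called lower in all 15 alternatives, and with the effective length offset 4 of the 10 genes passed. The part of proliferation in the lower counts of LMNB1, LBR and TMPO was not tested.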

How the data were processed

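RNA was extracted with TRIzol, and per the labels poly(A) RNA was prepared with an mRNA kit, whereas the study's methods name a total RNA kit. The authors trimmed reads with fastp, ran kallisto on GENCODE release 37 (GRCh38) and deposited for each transcript an estimated count, a TPM value, length and effective length. These deposited estimated counts are raw, whereas the authors' TPM take effective length and the library total into account. In each library the effective length was above the annotated length for 24.2% to 29.1% of transcripts. It is therefore not a plain count of fragment start positions, and how it was adjusted is not given in the sources used here. Their versions are not given in the sources used here.

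Transcript identifiers were looked up in GENCODE 44, and the 1.54% to 1.80% of counts with no match were dropped. Counts were then summed per gene, rounded, filtered by filterByExpr, scaled by TMM and tested by glmQLFTest of edgeR 4.0.16 (R 4.3.3) over all genes or transcripts, with P values adjusted by Benjamini–Hochberg and called under 0.05. Transcript usage was tested by diffSpliceDGE with Simes P values. CPM use TMM-scaled totals, TPM per gene are sums, and confidence intervals are at 95%. Ratios were tested by exact permutation. Alternatives were DESeq2 1.42.0, other filters, removal of a GC trend (lowess, span 0.3), an effective length offset, a replicate block and leaving out each library. The scripts were tested on simulated data.

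The 10 genes and all lists were chosen with earlier results of these data known. All 10 genes are named. Of the further lists, genes called with an absolute log2 fold change over 0.5 are given with values, at most 4 per list, and others named were chosen after their values were seen. Transcripts of SYNE2 with at least 5% of its counts in any library are named, and of other genes those leading a called usage test. Sequences of coding ends come from GENCODE 44 and promoter windows from RefSeq (GRCh38.p14), which gave 20 windows for 9 of the 10 genes and none for SUN1. Protein sequences were not used here.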

Additional observations from a re-analysis of the deposited data

How the results depend on the processing

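Depth limited rare transcripts most: SYNE3 had 74.1 to 233 estimated counts per library, and the transcripts that led the usage calls had few counts. LMNB1 and SYNE2 kept their direction and their call in all 15 alternatives, LBR in 12, LMNA in 4 and EMD in 1. Of the 10 genes, 3 were called with size factors of DESeq2, with the effective length offset and with the replicate block, all lower. Of all genes 14.9%, 6.11% and 11.3% were called lower in these settings, in this order. With the length offset and the replicate block 2 were called, both lower, beside 2.76% of all genes. When single libraries were omitted 3 to 5 were called, beside 8.57% to 15.7% of all genes lower and 8.91% to 14.6% higher. LMNA reversed with the GC trend removed (log2 fold change -0.0288, and -0.0282 with the block). SUN2 reversed with the GC trend removed (-0.244, also with the block), with the length offset (-0.0627, and -0.0711 with the block) and without IR replicate 3, and ranged from -0.0696 to 0.0934 when single libraries were omitted. The causes were not tested.

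Over all genes, 4307 were called, against 1708 with the length offset, 742 with the length offset and block, 3351 with the block alone and 2582 to 4398 when each library was left out, with the low end without untreated replicate 1 (2582) or 2 (2601). No transcript was called by edgeR, 1 was at a minimum of 10 counts in every library, 3002 were by DESeq2 (added after seeing the data), and 0 when any library was left out. Usage calls numbered 291, against 69 at that minimum, 151 with the block and 240 to 454 when each library was left out (454 without untreated replicate 3). Of the 31 nuclear pore genes, 0 were called lower with the length offset and block, where 2.76% of all genes were. The GC fit with the block was also added after seeing the data. Libraries with equal replicate numbers showed no shared deviation (correlation of their deviations from -0.0488 to 0.0217). No source used here says whether equal numbers mark a pair, so the block has no known basis in the design. The 3 ratios that were higher in every IR library, and SUN2 over SUN1, kept their direction in all 8 alternatives each, none of which removed the GC trend. SYNE1 over SYNE2 was higher by 1.21 when taken from counts without division by effective length. With the block, an exact sign-flip permutation test of it gave P = 0.25, the smallest it can give.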

Other observations

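Promoter windows of RefSeq (250 bases before to 50 after a start) were searched on both strands for 4 motifs, as a description. CCAAT was in 6 of the 20 windows found for 9 of the genes (SUN1 had none) and in 34.6% of all 35116 windows. TTTGAA, the letters of the cell cycle homology region, was in 2 of 20 and in 15.2% of all. Of the E2F motifs, TTTCCCGC was in 1 of 20, a window of LMNA, and in 1.63% of all, and TTTGGCGC was in 0 of 20 and in 0.652% of all. No motif contains another. Some windows of SYNE2 lie near its 3′ end, and SYNE2-206, which starts from one of them, was at 0 in 5 libraries and at 1.67 CPM in IR replicate 3.

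Of the partners of nesprins, DST and PLEC encode giant linker proteins of the cytoskeleton. DST fell by 0.41 on the log2 scale, from 809 ± 46.0 to 611 ± 116 CPM (SD, n = 3, adjusted P = 0.0268), a call lost in 7 of 15 alternatives, and its log2 fold change was 0.11 with the effective length offset. PLEC, the partner of nesprin-3, was at 864 ± 69.2 and 1077 ± 192 CPM (log2 fold change 0.32, adjusted P = 0.0644). POM121, a membrane protein of the nuclear pore, was at 77.1 ± 6.48 and 52.8 ± 28.0 CPM (log2 fold change -0.55, adjusted P = 0.150).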
